A study of Mus musculus with 9 samples.

Results

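Mr1, Cd1d1, B2m, Tap1, Tap2, Tapbp, Psmb8, Psmb9 and Nlrc5 belong to antigen presentation by MHC class I molecules and their relatives. Mr1 and Cd1d1 encode presenting molecules, B2m their shared light chain, Tap1, Tap2, Tapbp, Psmb8 and Psmb9 the machinery that makes peptides and loads them onto class I, and Nlrc5 a factor that switches class I genes on. They were taken by symbol from the array annotation, and all 9 were among the 19938 genes tested. Their expression was followed in circulating monocytes of 3 genotypes on Mouse Gene 1.0 ST arrays of Affymetrix, whose probes for a gene lie along the whole transcript. The groups were Ccr2-/- mice, which lack the receptor for CCL2, Ccl2-/- mice, which lack the ligand, and wild type mice. All were tumor-free, untreated Balb/c mice aged 14 to 18 weeks, and each genotype had 3 arrays, each hybridised with a pool made from 5 mice. Both deletions are germline alleles backcrossed into Balb/cJ from time to time, and the wild type Balb/cJ mice were bought from a supplier, so colony and genotype cannot be told apart. Antibodies to CCR3, MHC class II, Ly-6G, B220, CD8 and CD4 removed other cells, and CD11b-positive cells were then selected. In these mixed fractions, fewer cells of a type and less RNA per cell cannot be told apart.

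Class I molecules display fragments of a cell's own proteins to CD8 T cells. Proteasomes cut the proteins, and interferon-γ exchanges their catalytic subunits for the immunoproteasome subunits, among them those encoded by Psmb8 and Psmb9. The peptides enter the endoplasmic reticulum through the transporter made of TAP1 and TAP2, and tapasin, the product of Tapbp, holds empty class I molecules at that transporter. B2m encodes β2-microglobulin, the light chain shared by class I molecules, CD1d and MR1. CD1d presents lipids to NKT cells, and MR1 presents metabolites of microbial vitamin B synthesis to MAIT cells. NLRC5 is the transactivator of class I genes. It is recruited through the X and Y boxes of their promoters, and the interferon-induced factor IRF1 acts on many of the same genes.

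The promoters of B2m, of Tap1, which shares its window with Psmb9, of Tapbp and of Mr1 are shown, since Mr1 and Tapbp changed with genotype while B2m and Tap1 did not pass the test. RefSeq windows of 300 bases on GRCm38.p6, from 250 before to 50 after the transcription start, were found for 6 of the 9 genes. They come from C57BL/6J mice, and the Balb/c sequence was not used here. Capitals mark matches, on either strand, to GAAA followed after any 2 bases by GAAA (interferon-stimulated response element), TTCNNNGAA (GAS, the interferon-γ activated sequence), ATTGG (the inverted CCAAT of the Y box) and TGACG (the core of the X2 box), and no match overlapped another in the windows printed.
B2m (chr2:122147437-122147736, + strand): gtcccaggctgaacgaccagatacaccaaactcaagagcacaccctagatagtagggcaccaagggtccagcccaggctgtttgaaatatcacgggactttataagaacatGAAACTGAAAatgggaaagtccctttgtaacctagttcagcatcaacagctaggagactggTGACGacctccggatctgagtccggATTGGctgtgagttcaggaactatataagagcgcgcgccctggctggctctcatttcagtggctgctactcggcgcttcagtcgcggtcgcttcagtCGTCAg
Tap1 (chr17:34187306-34187605, + strand): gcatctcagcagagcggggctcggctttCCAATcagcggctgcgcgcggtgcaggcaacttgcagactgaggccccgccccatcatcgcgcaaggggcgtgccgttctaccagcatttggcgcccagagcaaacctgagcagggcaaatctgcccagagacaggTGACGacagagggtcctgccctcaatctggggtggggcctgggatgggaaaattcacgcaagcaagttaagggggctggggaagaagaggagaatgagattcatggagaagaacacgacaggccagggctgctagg
Tapbp (chr17:33919228-33919527, + strand): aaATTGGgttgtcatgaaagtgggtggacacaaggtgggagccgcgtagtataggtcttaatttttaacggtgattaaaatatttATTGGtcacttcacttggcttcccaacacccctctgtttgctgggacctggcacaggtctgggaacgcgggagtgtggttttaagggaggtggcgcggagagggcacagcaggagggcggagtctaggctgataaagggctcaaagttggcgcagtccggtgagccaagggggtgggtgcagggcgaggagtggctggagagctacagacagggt
Mr1 (chr1:155146765-155147064, - strand): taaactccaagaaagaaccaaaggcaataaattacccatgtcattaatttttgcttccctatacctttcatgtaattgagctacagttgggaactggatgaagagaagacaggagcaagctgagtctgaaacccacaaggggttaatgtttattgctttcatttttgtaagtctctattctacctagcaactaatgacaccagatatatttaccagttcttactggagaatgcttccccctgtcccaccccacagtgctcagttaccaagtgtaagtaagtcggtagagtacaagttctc

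The B2m window held the interferon-stimulated response element 139 bases before the start, with a TGACG at -78 and an ATTGG at -53, and a further TGACG on the opposite strand at 45 after the start. Over all 32851 promoter windows of the same length, 3.44% held the response element, 8.30% GAS, 37.4% ATTGG and 20.8% TGACG, so only the first of the B2m matches was uncommon. The starts of Tap1 and Psmb9 lie 226 bases apart and point away from each other, so that the windows share 275 bases. The Tap1 window had TGACG at -86 and, on the opposite strand, ATTGG at -222. Both lie in the shared bases and stand at -144 and -8 of Psmb9. The Tapbp window had ATTGG at -248 and -165 and no other match, Psmb8 had GAS alone, at -97, and the Mr1 window had none of the 4. A match is a string of letters and not a site shown to be used.

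**Figure D1:**
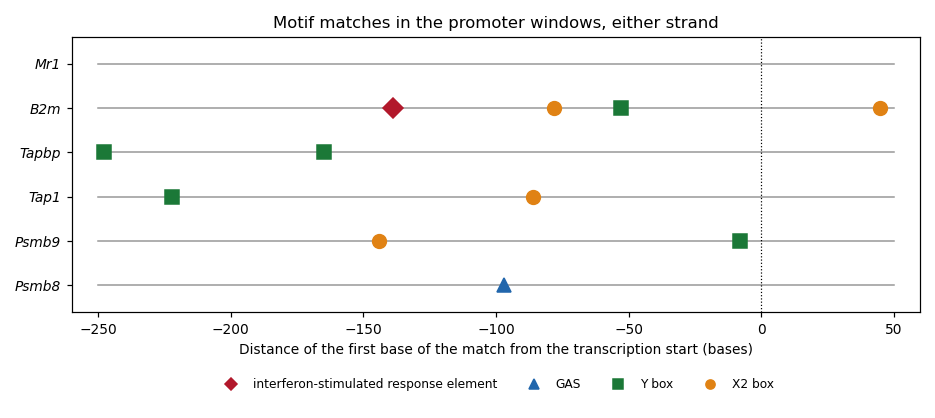
Positions of the motif matches on either strand in the promoter windows of 6 genes, with the distance of the first matched base from the transcription start in bases on the horizontal axis. B2m has the only interferon-stimulated response element, at -139, and Mr1 has no match.

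Mr1 and Cd1d1 rose and Tapbp fell in Ccr2-/- monocytes, and B2m, Tap1, Tap2, Psmb8, Psmb9 and Nlrc5 did not pass the test. The log2 intensities of the 3 genotypes were compared with limma in 1 model, and a gene was called where its p, adjusted by Benjamini-Hochberg for every gene tested, was under 0.05. Thus 3 of 9 genes were called against wild type, 2 higher and 1 lower, where 13.3% of all genes were called, 4.91% higher and 8.38% lower. An unadjusted p under 0.05 was found for 5 of 9, Tap2 and Nlrc5 in addition, beside 23.2% of all genes. In Ccl2-/- monocytes none of the 9 was called against wild type by limma (2 at an unadjusted p under 0.05, where 13.1% of all genes had one), beside 0.160% of all genes. Directly between Ccr2-/- and Ccl2-/- monocytes none was called either (2 at an unadjusted p under 0.05, beside 18.6%), where 3.60% of all genes were. Each p measures the spread between pooled arrays and not between mice.

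**Figure D2:**
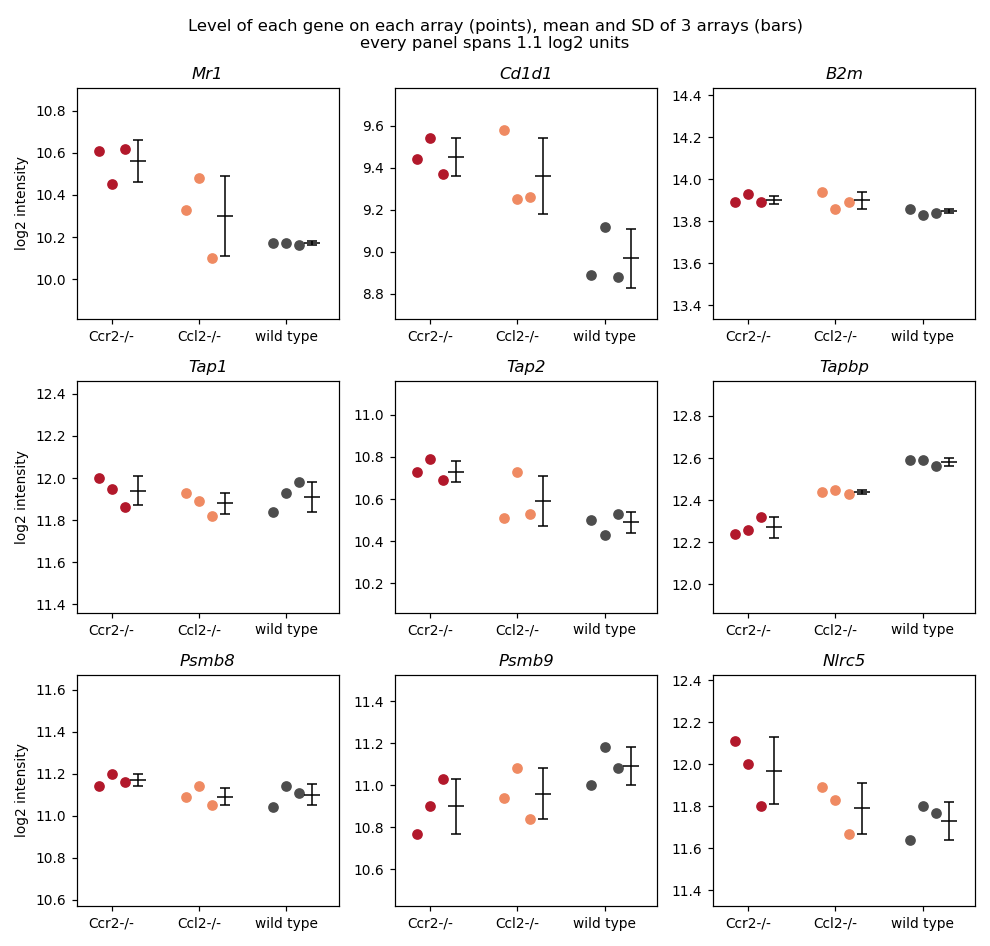
Log2 intensity of each of the 9 genes on each array, with points for arrays and bars for the mean and SD of 3 arrays, in panels that all span the same range. The Ccr2-/- points of Mr1 (10.45 to 10.62) lie above and those of Tapbp (12.24 to 12.32) below all wild type points, while those of Tap1 overlap.

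The targeted receptor checked the labels. Ccr2 averaged 9.44 ± 0.03 on the log2 scale in Ccr2-/-, 12.76 ± 0.17 in Ccl2-/- and 13.09 ± 0.15 in wild type monocytes (SD, n = 3 arrays each). The Ccl2 probes read 9.45 ± 0.36 in Ccl2-/- and 8.98 ± 0.21 in wild type monocytes, and since no source states where they lie relative to the deleted part, they check nothing. Median intensity over all clusters was 324.1 to 355.1 on 8 arrays and 430.8 on Ccl2-/- replicate 1. Markers of several cell types moved with genotype. All 13 measured NK cell genes rose in Ccr2-/- monocytes, beside 4.91% of all genes called higher. Their intensities summed to 100854 to 103705 in Ccr2-/-, 76288 to 90298 in Ccl2-/- and 61283 to 66268 in wild type arrays. All 9 measured Ly-6Chi monocyte genes fell in Ccr2-/- monocytes, Ccr2 itself among them, beside 8.38% of all genes called lower. Their sums were 15653 to 17101 in Ccr2-/-, 29106 to 35241 in Ccl2-/- and 40422 to 50107 in wild type arrays. Of 9 general monocyte genes 7 fell in Ccr2-/- monocytes, beside the same 8.38%, and none was called in Ccl2-/- monocytes. Their sums were 45936 to 49672 in Ccr2-/-, 54626 to 60348 in Ccl2-/- and 58021 to 60372 in wild type arrays. Of 12 Ly-6Clo monocyte genes 2 rose in Ccr2-/- monocytes, Spn and Cd9, beside 4.91% of all genes called higher. The Ly-6Clo sums overlapped, at 65924 to 69962 in Ccr2-/- and 57934 to 70272 in wild type arrays. No T or B cell gene of 12 and 7 measured passed limma in Ccr2-/- monocytes against wild type. At an unadjusted p under 0.05 were 2 and 1 of them, beside 23.2% of all genes. No marker read below an intensity of 119 on any array, which does not show that every marker was detected. Among the B cell genes, Fcer2a had a mean intensity of 135 in Ccr2-/- and 139 in wild type arrays, below the median of every array. Cd79b had 1160 and 1554. The T cell sums were 18612, 12911 and 7284 in Ccr2-/- replicates 1, 2 and 3. They were 7717 to 11071 in Ccl2-/- and 9801 to 10711 in wild type arrays. Across the Ccr2-/- arrays Nlrc5 and Tap1 were highest and lowest where the T cell sum was. In the other genotypes the T cell sums spanned less, and the order was another. Ccl2-/- replicate 1, the array with the median of 430.8, had the highest Nlrc5 (11.89) and Tap1 (11.93) of its genotype. Its T cell sum was the lowest (7717), close to that of replicate 3 (7797). Wild type replicate 1 had the highest T cell sum (10711) and the lowest Nlrc5 (11.64) and Tap1 (11.84) of its genotype. The part of these cells in the results on the 9 genes was not tested.

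Mr1 encodes the presenting molecule itself. Its linear intensity was 1567, 1398 and 1569 in Ccr2-/-, 1288, 1432 and 1095 in Ccl2-/- and 1154, 1151 and 1143 in wild type monocytes, and its log2 mean was 10.56 ± 0.10 in Ccr2-/-, 10.30 ± 0.19 in Ccl2-/- and 10.17 ± 0.01 in wild type monocytes (SD, n = 3 arrays each). All Ccr2-/- arrays were above all wild type arrays, which were nearly identical, whereas Ccl2-/- arrays spread from below the wild type values to within the Ccr2-/- range. Mr1 rose 1.31-fold in Ccr2-/- monocytes against wild type (log2 difference 0.39, standard error 0.10, 95% confidence interval 0.16 to 0.63, limma adjusted p = 0.0365). The call was lost without any single wild type array (0.106 to 0.111) or without Ccr2-/- replicate 1 (0.136), 2 (0.0572) or 3 (0.109). It was also lost under centring (0.135), in which every array is shifted to the same median over all clusters. Ccl2-/- monocytes differed from wild type by 0.14 on the log2 scale (95% confidence interval -0.09 to 0.37, adjusted p = 0.534), and Ccr2-/- over Ccl2-/- was 0.26 (adjusted p = 0.226). The order of means was therefore Ccr2-/-, Ccl2-/-, wild type, and neither neighbouring pair passed the test.

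Cd1d1, the lipid-presenting relative, had values of 9.44, 9.54 and 9.37 in Ccr2-/-, 9.58, 9.25 and 9.26 in Ccl2-/- and 8.89, 9.12 and 8.88 in wild type monocytes on the log2 scale. Every array of either knockout was above every wild type array, and the knockouts overlapped each other. Cd1d1 rose 1.40-fold in Ccr2-/- monocytes (log2 difference 0.48, standard error 0.11, limma adjusted p = 0.0223). The Ccl2-/- log2 difference from wild type was 0.40, with an unadjusted p of 0.00677 that did not pass over all genes (adjusted p = 0.192). Ccr2-/- over Ccl2-/- was 0.08 (95% confidence interval -0.17 to 0.34, adjusted p = 0.712). The Ccr2-/- call was lost without wild type replicate 1 (0.0928) or 3 (0.0854) and without Ccr2-/- replicate 1 (0.076) or 2 (0.0959). Cd1d2, a near copy beside Cd1d1 whose probes may not be separate from it, differed by 0.16 in Ccr2-/- monocytes (adjusted p = 0.793) and by 0.44 in Ccl2-/- monocytes (adjusted p = 0.395).

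B2m, the light chain that MR1, CD1d and class I heavy chains all need, read 13.89, 13.93 and 13.89 in Ccr2-/-, 13.94, 13.86 and 13.89 in Ccl2-/- and 13.86, 13.83 and 13.84 in wild type monocytes on the log2 scale. The Ccr2-/- arrays lay above the wild type arrays by a small margin. The difference of Ccr2-/- from wild type was 0.06 (95% confidence interval -0.07 to 0.19, limma adjusted p = 0.7), and that of Ccl2-/- from wild type was 0.05 (-0.08 to 0.18, adjusted p = 0.643). The intervals leave room for at most a 1.14-fold rise in Ccr2-/- and a 1.13-fold rise in Ccl2-/- monocytes. Its mean linear intensity was 15327 in Ccr2-/-, 15267 in Ccl2-/- and 14723 in wild type monocytes. Only 5 genes had a higher mean, and the brightest gene reached 19201 to 20124 over the arrays, so B2m was near the top of the scale, and whether differences were compressed there was not tested.

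Neither transporter subunit passed the test, and only Tap1 was close in the 3 genotypes. Tap1 had log2 values of 12.00, 11.95 and 11.86 in Ccr2-/-, 11.93, 11.89 and 11.82 in Ccl2-/- and 11.84, 11.93 and 11.98 in wild type monocytes. All genotypes overlapped, and the log2 difference from wild type was 0.03 in Ccr2-/- (95% confidence interval -0.13 to 0.19, limma adjusted p = 0.93) and -0.03 in Ccl2-/- monocytes (-0.19 to 0.13, adjusted p = 0.826). The sign in Ccr2-/- monocytes turned under centring (-0.02). Tap2 had 10.73, 10.79 and 10.69 in Ccr2-/-, 10.51, 10.73 and 10.53 in Ccl2-/- and 10.50, 10.43 and 10.53 in wild type monocytes. Its Ccr2-/- arrays were above all wild type arrays, and Ccl2-/- replicate 2 stood at the Ccr2-/- level. The Tap2 difference of 0.25 between Ccr2-/- and wild type (95% confidence interval 0.07 to 0.42) did not pass (adjusted p = 0.0761). It passed with quantile normalization (0.0367), with an intensity trend (0.0389), in a fit of the 6 arrays compared (0.039) and without Ccl2-/- replicate 1 (0.0472).

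Tapbp, which encodes tapasin, had the smallest p of the 9 genes in Ccr2-/- against wild type. It read 12.24, 12.26 and 12.32 in Ccr2-/-, 12.44, 12.45 and 12.43 in Ccl2-/- and 12.59, 12.59 and 12.56 in wild type monocytes on the log2 scale. The 3 genotypes did not overlap, with Ccr2-/- lowest and Ccl2-/- between it and wild type. Tapbp fell to 0.808-fold in Ccr2-/- monocytes (log2 difference -0.31, standard error 0.06, limma adjusted p = 0.00794), and the call held without any single array (adjusted p 0.00638 to 0.0429). It was lost under centring (log2 difference -0.35, adjusted p = 0.0795). Against wild type, the Ccl2-/- difference was -0.14 (95% confidence interval -0.27 to -0.01, adjusted p = 0.354), and Ccr2-/- minus Ccl2-/- was -0.17 (-0.30 to -0.04, adjusted p = 0.16). A further 2 transcript clusters annotated jointly to Tapbp and another gene were not used.

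The immunoproteasome subunits did not pass in any comparison by limma. Psmb8 had log2 values of 11.14, 11.20 and 11.16 in Ccr2-/-, 11.09, 11.14 and 11.05 in Ccl2-/- and 11.04, 11.14 and 11.11 in wild type monocytes. Its Ccr2-/- arrays lay at or just above the highest array of the others, with a log2 difference from wild type of 0.07 (95% confidence interval -0.07 to 0.21, adjusted p = 0.626) in Ccr2-/- and -0.003 (-0.14 to 0.14, adjusted p = 0.985) in Ccl2-/- monocytes. Psmb9 had linear intensities of 1750, 1915 and 2098 in Ccr2-/-, 1970, 2171 and 1833 in Ccl2-/- and 2051, 2325 and 2158 in wild type monocytes. The genotypes overlapped, with log2 differences from wild type of -0.18 (-0.40 to 0.04, adjusted p = 0.325) in Ccr2-/- and -0.13 (-0.35 to 0.09, adjusted p = 0.534) in Ccl2-/- monocytes. Psmb8 and Psmb9 stand on opposite sides of Tap1 in the genome.

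Nlrc5, the class I transactivator, was read from the brightest of its 19 transcript clusters. It had log2 values of 12.11, 12.00 and 11.80 in Ccr2-/-, 11.89, 11.83 and 11.67 in Ccl2-/- and 11.64, 11.80 and 11.77 in wild type monocytes. Ccr2-/- replicate 3 lay at the level of wild type replicate 2, and the difference of 0.24 from wild type did not pass (95% confidence interval 0.01 to 0.47, limma adjusted p = 0.198). For Ccl2-/- it was 0.06 (-0.17 to 0.29, adjusted p = 0.763). In a fit over all 35512 clusters, 17 of the 19 Nlrc5 clusters were higher in Ccr2-/- than in wild type monocytes. The 19 differences ran from -0.15 to 0.46 with a median of 0.21, beside a median of 0.01 over all genes. None of the 19 was called by limma (4 at an unadjusted p under 0.05, beside 23.2% of all genes, lowest adjusted p 0.0793). Against wild type, 15 of 19 were higher in Ccl2-/- monocytes, with a median of 0.06, which is no more than the 0.08 over all genes. The share of all clusters that were higher was not counted. The clusters come from the same 9 arrays and are not independent of each other.

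**Figure D3:**
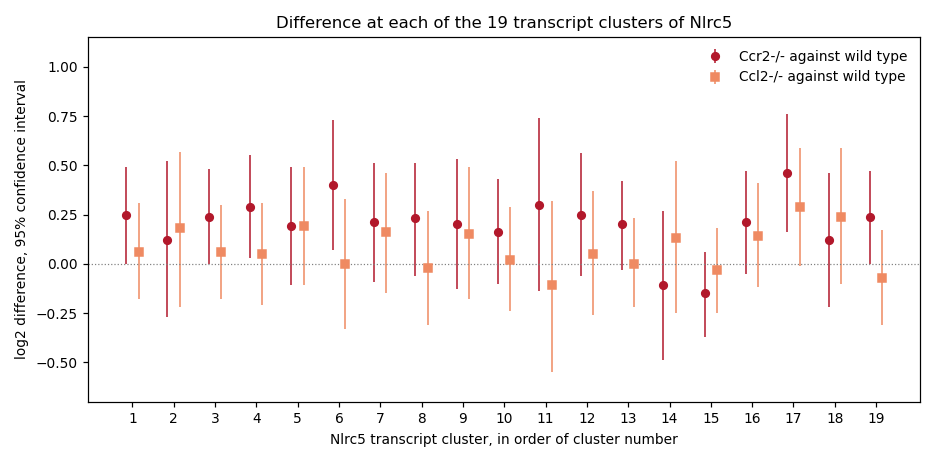
Log2 difference from wild type with its 95% confidence interval at each of the 19 Nlrc5 clusters, for Ccr2-/- (circles) and Ccl2-/- monocytes (squares). Ccr2-/- values run from -0.15 to 0.46 and 17 of 19 are above 0.

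**Figure D4:**
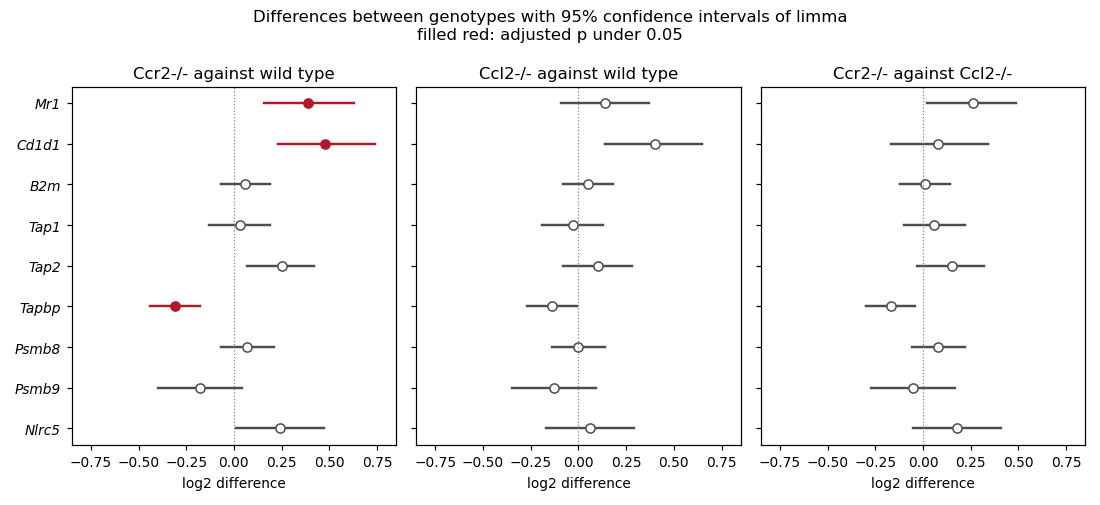
Log2 differences between genotypes for the 9 genes with 95% confidence intervals of limma, filled red where the adjusted p was under 0.05. Mr1 (0.39), Cd1d1 (0.48) and Tapbp (-0.31) pass in Ccr2-/- against wild type, and no gene passes in the other comparisons.

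The study's methods name size limits, in which 2 values differ by more than 100 and more than 1.2-fold, and these were applied to group means of linear intensity. They took in Mr1, Cd1d1 and Tapbp in Ccr2-/- monocytes (3 of 9, beside 15.8% of all genes) and Cd1d1 alone in Ccl2-/- monocytes (1 of 9, beside 11.6%). For Cd1d1 the mean intensity was 700 in Ccr2-/-, 663 in Ccl2-/- and 502 in wild type monocytes. Between Ccr2-/- and Ccl2-/- monocytes no member was past them, beside 12.6% of all genes. Arrays of Ccr2-/- and of wild type were fully separate for 6 of 9 genes, beside 33.9% of all genes. For Mr1, Cd1d1, B2m, Tap2 and Psmb8, 5 of 9, the Ccr2-/- arrays were higher, beside 15.7%, and for Tapbp, 1 of 9, lower, beside 18.1%. Arrays of Ccl2-/- and of wild type were separate for Cd1d1 and Tapbp, 2 of 9, beside 18.7%. Between Ccr2-/- and Ccl2-/- arrays this held for Tapbp and Psmb8, 2 of 9, beside 23.6%.

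Of 15 measured class I heavy chain genes and relatives, 1 fell in Ccr2-/- monocytes and 14 did not pass. That share is near the 8.38% of all genes called lower, and the median log2 difference was 0.03, beside 0.01 over all genes. The 14 include dim genes, such as H2-M10.1 (mean intensity 40 in Ccr2-/- and 54 in wild type) and Azgp1 (149 and 125), and bright ones, such as H2-Q4 (4475 and 4144). For the dim ones the lack of a call says little. The gene that fell was H2-T24, a nonclassical class I gene, which read 10.35, 10.20 and 10.13 in Ccr2-/-, 10.66, 10.87 and 11.16 in Ccl2-/- and 11.16, 11.27 and 11.34 in wild type monocytes. The Ccr2-/- arrays were below all others, and H2-T24 fell to 0.49-fold of wild type (limma adjusted p = 0.00132) and was lower than in Ccl2-/- monocytes as well (log2 difference -0.67, adjusted p = 0.0313). That direct call was lost in 11 of 17 alternatives, among them centring (0.172), a fit of 6 arrays (0.126) and each array left out other than Ccl2-/- replicate 1 (0.0566 to 0.118). Without Ccl2-/- replicate 1, Hfe, a class I relative that controls iron uptake, also fell in Ccr2-/- monocytes, which made 2 of 15. The list had 28 genes, and 13 of them, H2-K1 and H2-D1 included, could not be read because they have no transcript cluster of their own, 9 of these lying on clusters shared by several genes. None of 10 genes of peptide loading and trimming, such as Calr, Canx, Pdia3, Erap1 and Tapbpl, passed limma in either knockout, and none had an unadjusted p under 0.05.

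Among 6 genes of the immunoproteasome and its activators, Pomp, the proteasome assembly chaperone, fell to 0.785-fold in Ccr2-/- monocytes (limma adjusted p = 0.0152), a call lost with centring (0.0593) and on leaving out Ccr2-/- replicates 1 (0.0673) or 2 (0.0687) or wild type replicate 2 (0.0645). The third inducible subunit, Psmb10, differed from wild type by -0.01 on the log2 scale (adjusted p = 0.978), and the activator subunits Psme1 and Psme2 by 0.01 and -0.11 (adjusted p = 0.981 and 0.514). Of 14 constitutive 20S subunits, Psma7 fell to 0.752-fold (adjusted p = 0.004), and the other 13 did not pass. The calls were thus 1 of 6 and 1 of 14, beside 8.38% of all genes called lower, and the second share is near that. The median log2 difference of the 14 was -0.12, beside 0.01 over all genes. In Ccl2-/- monocytes none of these 6 and 14 genes passed limma (0 and 4 at an unadjusted p under 0.05, beside 13.1% of all genes).

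Of 18 measured genes that act in class I transcription, 3 fell and 1 rose in Ccr2-/- monocytes, beside 8.38% of all genes called lower and 4.91% higher. Their median log2 difference was -0.05, beside 0.01 over all genes. Ifngr2, a chain of the interferon-γ receptor, fell to 0.618-fold (limma adjusted p = 0.00121), Irf9 to 0.73-fold (0.00132) and Stat2, its partner in the type I interferon response, to 0.67-fold (0.00193). The kinase Jak1 rose 1.29-fold (0.00914, and 0.0992 with centring). Irf1, a direct activator of class I genes, differed by 0.08 on the log2 scale (adjusted p = 0.646). Of 14 measured interferon-stimulated genes outside the presentation pathway, 13 fell in Ccr2-/- monocytes, with a median log2 difference of -1.04, among them Ifit3 (-1.64, adjusted p = 0.00112) and Oasl2 (-1.44, adjusted p = 0.000653). In Ccr2-/- monocytes the members B2m, Tap1, Psmb8 and Psmb9 differed from wild type by 0.06, 0.03, 0.07 and -0.18. Tap2 and Nlrc5 differed by 0.25 and 0.24, Mr1 and Cd1d1 by 0.39 and 0.48, and Tapbp by -0.31. Only Mr1, Cd1d1 and Tapbp passed limma, and of these Tapbp alone fell. In Ccl2-/- monocytes 1 of the 14 interferon-stimulated genes rose, Xaf1 (0.89, limma adjusted p = 0.0413), beside 0.160% of all genes called in either direction. Xaf1 was among those that fell in Ccr2-/- monocytes (-0.49). The median of the 14 was -0.30 in Ccl2-/- monocytes. None of the 18 transcription genes passed limma there (2 at an unadjusted p under 0.05, beside 13.1% of all genes).

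Of 10 measured genes listed for lipid loading of CD1d, 6 fell in Ccr2-/- monocytes and 4 did not pass, beside 8.38% of all genes called lower. The list also holds the proteases Ctsl and Ctss, and its median log2 difference was -0.34. Npc2, a lysosomal lipid carrier, fell to 0.567-fold (limma adjusted p = 0.00053), the protease Ctsl to 0.369-fold (0.000829), the galactosidase Gla to 0.584-fold (0.00163) and Scarb2, a lysosomal membrane protein, to 0.715-fold (0.00248). Psap, the precursor of the saposins that load CD1d, fell to 0.843-fold (0.0412), which was lost with centring (0.206), without any single wild type array (0.104 to 0.147), without Ccl2-/- replicate 2 (0.0736) and without Ccr2-/- replicates 1 (0.154) or 2 (0.136). Mttp, which lipidates CD1d in the endoplasmic reticulum, differed by 0.05 (adjusted p = 0.92). None of the 10 passed in Ccl2-/- monocytes by limma (4 at an unadjusted p under 0.05, beside 13.1% of all genes). Of 8 genes listed for MHC class II, 4 fell in Ccr2-/- monocytes, beside 8.38% of all genes called lower. They were H2-DMa (0.615-fold, adjusted p = 0.00143), the class II transactivator Ciita (0.703-fold, adjusted p = 0.00739), Cd74 and Ctss. Ctss, a protease, is also counted among the 6 genes of the CD1d list that fell. Cells bearing surface MHC class II had been removed before the arrays.

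**Figure D5:**
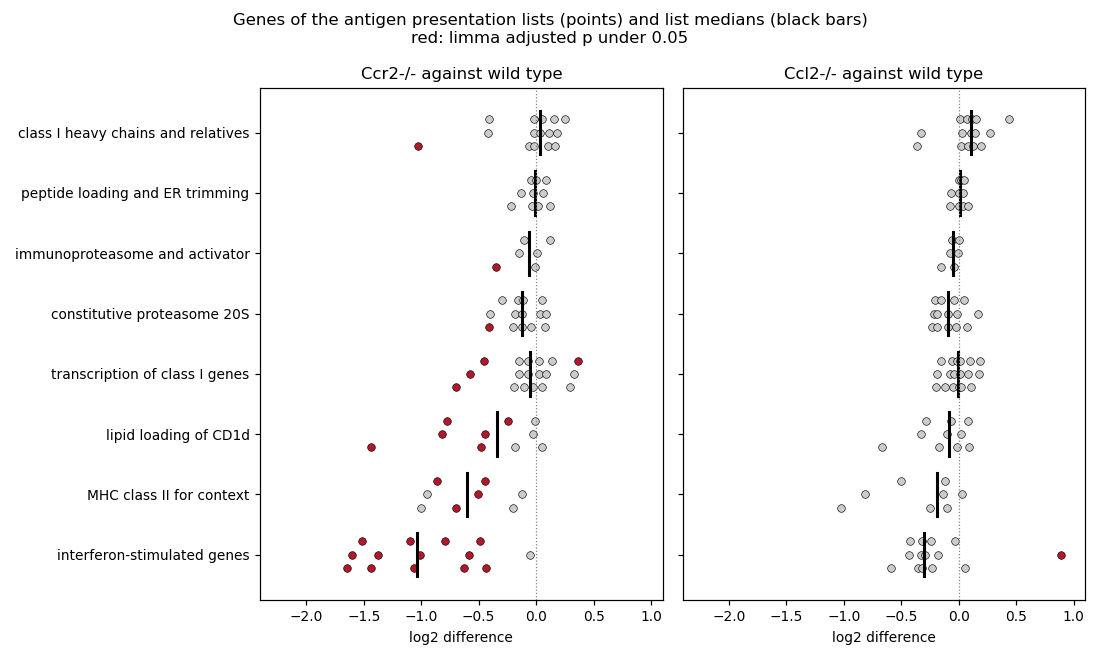
Log2 difference from wild type of each gene (points, red where the limma adjusted p was under 0.05) in the lists of the pathway and of interferon-stimulated genes, with list medians as black bars. In Ccr2-/- monocytes the median is 0.03 for measured class I heavy chains and relatives, -0.34 for lipid loading of CD1d and -1.04 for interferon-stimulated genes.

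By gene order in the RefSeq table, Psmb9, Tap1, Psmb8 and Tap2 are neighbours within the MHC, between H2-DMa and H2-Ob. H2-DMa, a class II chaperone chain, fell in Ccr2-/- monocytes (log2 difference -0.70, limma adjusted p = 0.00143), while Tap2 at the other end differed by 0.25 and H2-Ob by 0.13 (adjusted p = 0.0761 and 0.701). Tapbp lies elsewhere in the MHC. Of the nearest 4 measured genes around it, Daxx, a histone chaperone, fell by 0.61 (adjusted p = 0.00192), and Zbtb22, Rgl2 and Pfdn6 had differences of -0.25, -0.21 and -0.01 (adjusted p = 0.126, 0.0505 and 0.982). None of the 4 nearest genes of Mr1 passed limma in Ccr2-/- monocytes, the closest being Stx6 (-0.22, adjusted p = 0.0688). Near Cd1d1, the kinase gene Dclk2 rose by 0.86 (adjusted p = 0.000772). None of the 9 members lies on the chromosome of Ccl2 or of Ccr2.

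Among 19070 other genes with a mean intensity over 100, those whose log2 level followed Mr1 most closely over the 9 arrays were Ddx55, an RNA helicase (Pearson's r = 0.98), and Nipal3, Ly75, Prkacb and Ppil2 (0.97 each). Of these, Nipal3 rose 1.35-fold in Ccr2-/- monocytes against wild type (limma adjusted p = 0.0183). Ly75, the endocytic receptor DEC-205, rose 1.39-fold (0.0136) and Prkacb, a catalytic subunit of protein kinase A, 1.33-fold (0.0171). Ddx55 and Ppil2 had log2 differences of 0.23 and 0.19 and did not pass (adjusted p = 0.0765 and 0.0772). All were chosen for following Mr1 on these same arrays, so a rise in the comparison where Mr1 rose was built in. Their p values therefore test nothing further. Among the members, r with Mr1 was 0.83 for Tap2, 0.71 for Nlrc5, 0.69 for Psmb8, 0.62 for Cd1d1, 0.39 for B2m, 0.33 for Tap1, -0.27 for Psmb9 and -0.79 for Tapbp. The genes most like Tap1 were Zfp873 and Creb1 (0.94 each), Zfp329 (0.93), Trim14 (0.90) and Rgp1 (0.89), and Nlrc5 was the nearest member (0.79). The points are 9 arrays of 3 genotypes and share each array's scale, so these values describe likeness only.

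Under centring, every difference between Ccl2-/- and wild type shifted by about the change in the median of all genes, which was 0.08 without and -0.03 with centring. On that scale B2m, Tap2 and Nlrc5 turned sign in Ccl2-/- monocytes (-0.06, -0.02 and -0.06), and none of the 9 genes was called.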

How the data were processed

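Circulating monocytes of Ccr2-/-, Ccl2-/- and wild type mice were profiled on 9 arrays. Values were used as deposited: 1 linear intensity per transcript cluster and array, from the authors' dChip run, whose version, normalization and expression model are not given in the sources used here. Arrays have no read depth, and 3 per genotype limit the precision. Symbols were updated through the RefSeq gene table, used for names and gene order. Of 35512 clusters, 21789 carry 1 gene symbol, 1621 several and 12102 none. The brightest cluster stood for a gene with several (999 genes). Values under 1 were set to 1, log2 was taken, and limma 3.58.1 in R 4.3.3 was fitted and tested on simulated data. The 9 genes and the lists were chosen with earlier results of these data known. Named genes were all members, up to 6 per pathway list (called genes first, then by p), the 5 most like Mr1 and Tap1, and neighbours and interferon-stimulated genes named after their values were seen. Alternatives were quantile normalization, centring, a filter at a mean of 100, an offset of 50, an intensity trend, the mean of clusters, fits of 6 arrays, the replicate block, arrays left out, and the methods' size limits. Same-numbered arrays were not paired in the main model.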

Additional observations from a re-analysis of the deposited data

How the results depend on the processing

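The 3 calls of Ccr2-/- against wild type became 1 with centring (Cd1d1), and 1 to 4 when single arrays were left out, where 1 remained, Tapbp, without wild type replicates 1 or 3 and without Ccr2-/- replicates 1 or 2. In Ccl2-/- monocytes the count of 0 was 1 by the size limits (Cd1d1) and 0 under the other alternatives. Between Ccr2-/- and Ccl2-/- it was 1 with an intensity trend (Tapbp, adjusted p = 0.0129) and 0 otherwise. Over all genes, the 32 calls of Ccl2-/- against wild type were 62 with quantile normalization, 105 with an offset of 50, 366 with an intensity trend, 2 in a fit of 6 arrays and 6 to 476 with single arrays left out. The 2648 calls of Ccr2-/- against wild type were 1690 with centring and 1663 to 3479 with single arrays left out. The 718 calls between Ccr2-/- and Ccl2-/- were 131 with centring, 1344 with a trend, 17 in a fit of 6 arrays and 22 to 1189 with single arrays left out. The replicate block, which pairs arrays by number, gave 7 calls for Ccl2-/- against wild type and 167 between Ccr2-/- and Ccl2-/-, and with it the adjusted p was 0.0802 for Mr1 and 0.092 for Psap in Ccr2-/- against wild type and 0.0719 for H2-T24 between the knockouts. No clear pairing by number was seen. Over 9 same-numbered pairs the correlation of deviations ran from -0.18 to 0.562. Each array of 1 genotype was also set against the 3 arrays of another, and in 3 of 9 cases the same number gave the highest correlation. With 3 arrays per genotype this check cannot settle whether arrays of the same number belong together. Differences near 0 changed sign. With centring, these were B2m (-0.06), Tap2 (-0.02) and Nlrc5 (-0.06) in Ccl2-/- and Tap1 (-0.02) in Ccr2-/- monocytes against wild type, and Psmb9 (0.02) between the knockouts. With single arrays left out, the values of Tap1 and Psmb8 in Ccl2-/- monocytes ran from -0.07 to 0.00 and from -0.03 to 0.02, that of Tap1 in Ccr2-/- from -0.01 to 0.06, and those of B2m and Psmb9 between the knockouts from -0.01 to 0.03 and from -0.12 to 0.01. The causes were not tested. The 9 direct calls between Ccr2-/- and Ccl2-/- among the named pathway genes were each lost in a fit of 6 arrays, and all but that of Npc2 with the replicate block.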
